A study of Mus musculus with 2 samples.

Results

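The complement system was examined in BV2 microglia through C1q and its partners, on 9 genes named by symbol: C1qa, C1qb, C1qc, C3, C4b, Cfb, Cfp, C3ar1 and C5ar1. A gene was measured where the platform annotation gave a transcript cluster, a group of probes read as 1 value, that symbol and no other. By this rule 8 of the 9 genes were measured, among 19938 genes on the arrays, each through 1 cluster. C3 had no cluster of its own in the annotation used here and was not analysed. The genes were chosen from their values in DMEM, their values in DMEM/F12 and the difference, so those values are given as a description.

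BV2, written BV-2 in the labels, is an immortalized mouse line that descends from microglia, which are macrophages that live in brain tissue. Cells were plated in DMEM/F12, a nutrient mixture richer than DMEM, and on the next day received either DMEM or fresh DMEM/F12, both with serum, for 1 d by the methods and longer than 1 day by the labels. The DMEM cells had therefore been moved out of DMEM/F12, while the DMEM/F12 cells stayed in the medium of plating. Each medium is represented by RNA on 1 Mouse Gene 1.0 ST array from Affymetrix, which gives 2 arrays in all. No medium has a replicate, so no error can be given. No test was run, and a difference between the arrays cannot be told apart from a difference between 2 dishes.

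Complement is a cascade of plasma and tissue proteins that tags particles for uptake and forms pores in membranes. C1q, built from the A, B and C chains, starts the classical pathway when it binds antibody or debris, and activation of C4 and C2 then leads to cleavage of C3. Factor B and properdin drive the alternative pathway, which amplifies C3 cleavage. The small fragments C3a and C5a act on G protein-coupled receptors of myeloid cells, and larger C3 fragments are bound by the integrins CR3 and CR4. In the brain, microglia are the main source of C1q, and C1q, C3 and CR3 take part in the removal of synapses during development.

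The deposited values are on a log2 scale with 2 decimals, and each difference is DMEM/F12 minus DMEM. Background was set from 1248 clusters of smell, pheromone and taste receptors, taken to be mostly silent in these cells. Their 95th percentile was used: 4.15 in DMEM and 4.17 in DMEM/F12. Of the 19938 genes, 13225 lay above it on at least 1 array. A gene with several clusters was counted where any of them lay above background, so its mean value can be below it. The median difference of all genes was 0.00 and its SD across genes was 0.23. Markers of microglia and macrophages were detected in these cells, with 14 of 15 measured genes above background on both arrays, among them Tyrobp (11.13 and 11.17), Itgam (7.79 and 7.80) and the lineage factor Spi1, which encodes PU.1 (10.34 and 10.30). Aif1 was the 1 such marker below background. Among markers of resting microglia, 5 of 9 were above background on both arrays, and P2ry12 was not (2.79 in each medium).

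Of the 8 measured complement genes, 6 had a lower value in DMEM/F12 and 2 a higher one, and the median log2 difference was -0.48. Over all genes 45.5% were lower and 47.2% higher. Since these differences took part in the choice of the genes, nothing is read from the counts. Above background on both arrays were 6 of the 8 genes. Of these, C1qb, C1qc, Cfp, C3ar1 and C5ar1 had the lower value in DMEM/F12 and C1qa the higher one. On the DMEM/F12 array C5ar1 lay 0.75 above background and C1qa 0.49. C1qa and C4b, the 2 genes with higher values, and Cfb all lay close to background on at least 1 array. In a bulk culture, fewer cells that express a gene and less RNA per cell cannot be told apart.

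**Figure D1:**
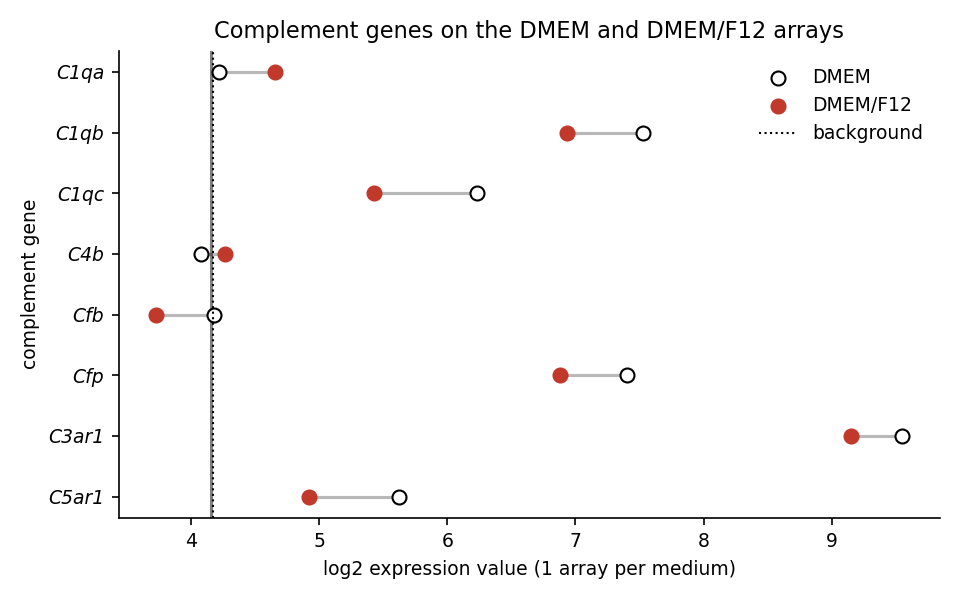
Log2 expression value (x axis) of the 8 measured complement genes (y axis) in DMEM (open) and in DMEM/F12 (red), 1 array each, joined by a gray line for each gene, and background as the dotted vertical. The DMEM/F12 point is to the left for C1qb, C1qc, Cfb, Cfp, C3ar1 and C5ar1 and to the right for C1qa and C4b.

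The chains of C1q did not go the same way. C1qb, which encodes the B chain, had a value of 7.53 (log2) in DMEM against 6.93 in DMEM/F12. The difference was -0.60, or 1.52-fold lower. C1qc, which encodes the C chain, had 6.23 in DMEM against 5.43 in DMEM/F12. This difference of -0.80, or 1.74-fold lower, was the lowest of the 8 genes. C1qa, which encodes the A chain, had 4.22 in DMEM against 4.66 in DMEM/F12, a difference of 0.44 or 1.36-fold higher. Its DMEM value was only 0.07 above background, whereas C1qb lay 3.38 and C1qc 2.08 above it on the same array. Each of the 3 chains was read by 1 cluster, so no second cluster of the gene could be set beside it. Levels of different clusters depend on their probes. The distances given above show only how clear of background each chain was, and the levels of the chains were not ranked.

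In the RefSeq annotation of GRCm38.p6 the genes C1qb, C1qc and C1qa lie next to each other in this order, with no other protein-coding gene between them. Beyond C1qa lies Epha8, an ephrin receptor gene, which had 4.52 in DMEM and 4.33 in DMEM/F12 (-0.19). The stretches before the starts of C1qb and C1qc, neighbours with lower values in DMEM/F12, are shown. Both stretches hold the core letters GAGGAA bound by PU.1, the myeloid factor named above. They are given 5′ to 3′ on the strand of the gene, with the PU.1 core in capitals (TTCCTC where it lies on the opposite strand).
C1qb, 250 bases, chr4:136886201-136886450, minus strand, GRCm38.p6: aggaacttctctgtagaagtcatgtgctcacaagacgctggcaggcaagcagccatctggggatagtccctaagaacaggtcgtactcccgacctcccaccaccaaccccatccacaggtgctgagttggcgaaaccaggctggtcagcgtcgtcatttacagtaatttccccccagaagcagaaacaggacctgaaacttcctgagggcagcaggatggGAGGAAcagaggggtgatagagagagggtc
C1qc, 228 bases, chr4:136892937-136893164, minus strand, GRCm38.p6: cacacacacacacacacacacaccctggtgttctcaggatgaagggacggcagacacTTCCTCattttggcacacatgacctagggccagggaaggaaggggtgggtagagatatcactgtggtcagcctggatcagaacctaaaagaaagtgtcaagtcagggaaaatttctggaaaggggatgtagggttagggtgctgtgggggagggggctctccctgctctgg
The core began 30 bases before the start of C1qb and 193 bases before the start of C1qc. The last 22 bases before the start of C1qc lie inside the annotated span of that gene and are not printed. The same 6 letters occur, on either strand, in 23.3% of the 32851 windows of 250 bases before RefSeq gene starts. A match is therefore a description of the letters and not a bound site. They also lay 26 bases before 1 start of C5ar2, the neighbour of C5ar1, which had a difference of -0.04. The windows of C3ar1, C5ar1 and Cfp, which had lower values, held no PU.1 core. A link between letters and values was not tested. RefSeq promoter windows matched 6 of the 9 genes by symbol, and C1qa, C4b and Cfb had no entry.

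The classical pathway beyond C1q was weak on these arrays. C4b, which encodes complement C4, had 4.08 in DMEM against 4.27 in DMEM/F12, a difference of 0.19, and only the DMEM/F12 value was above background. C4a, its near-identical paralog nearby, which RefSeq lists as a transcribed pseudogene, had 3.51 in DMEM and 4.01 in DMEM/F12, below background in both media. Probes for C4b and C4a may bind RNA of either gene, so the values of this pair are uncertain. The protein-coding neighbours of C4b, Tnxb and Cyp21a1, had differences of 0.19 and -0.05. C2, the serine protease that joins C4 in the C3 convertase, had 3.92 in DMEM and 3.99 in DMEM/F12, also below background. Of the measured proteases that attach to C1q (C1ra, C1s1 and C1s2), C1ra was the only one above background (4.83 in DMEM and 4.68 in DMEM/F12), while C1s1 had 2.55 and 2.50. In the classical pathway list, 4 of 9 measured genes had higher values and 5 lower ones, against 47.2% and 45.5% of all genes. The median difference of the list was -0.05. At 1.5-fold, C1qb and C1qc were the 2 genes of this list with lower values, where 0.727% of all genes were. No gene of the list had a higher one, where 0.928% of all genes were. C1qb and C1qc were chosen from these differences, so nothing is read from this count.

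Properdin and factor B, the 2 measured genes of the alternative pathway, had lower values in DMEM/F12. Cfp encodes properdin, the plasma protein that stabilizes the alternative C3 convertase, and had 7.40 in DMEM and 6.88 in DMEM/F12. Both values were well above background, and the difference was -0.52, or 1.43-fold lower. Its nearest protein-coding neighbours, Timp1 (below background on both arrays) and Elk1, had differences of -0.11 and -0.02. Cfb encodes factor B, the protease of that convertase, and had 4.18 in DMEM against 3.73 in DMEM/F12. The difference of -0.45 starts 0.03 above background and ends below it. When dim values were set to background, the difference of Cfb was -0.01. The protein-coding neighbours of Cfb, Nelfe and C2, had differences of -0.22 and 0.07. The protease gene Cfd had no single-symbol cluster, like C3, so 2 of the 4 genes listed for this arm were measured.

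Both anaphylatoxin receptors had lower values in DMEM/F12. C3ar1, the receptor of C3a, had 9.55 in DMEM against 9.15 in DMEM/F12, a difference of -0.40 or 1.32-fold lower, with both values far above background. C5ar1, the receptor of C5a, had 5.62 in DMEM against 4.92 in DMEM/F12, a difference of -0.70 or 1.62-fold lower. C5ar2, which encodes a second C5a receptor that does not couple to G proteins in the usual way and is the protein-coding neighbour of C5ar1, had 5.22 in DMEM against 5.18 in DMEM/F12, a difference of -0.04. The gene on the other side of C5ar1, Ccdc9, had a difference of 0.02, and the neighbours of C3ar1, Foxj2 and Necap1, had -0.04 and 0.11. C3ar1 and C5ar1 were chosen from their differences, so nothing is read from the smaller differences of their neighbours. Nothing is read from the neighbours of Cfp, Cfb and C4b either.

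The stretch before C3ar1, whose values were far above background in both media, is shown for the AP-1 letters near its start. AP-1 factors of the Jun and Fos families bind TGANTCA, whose match is in capitals.
C3ar1, 250 bases, chr6:122856158-122856407, minus strand, GRCm38.p6: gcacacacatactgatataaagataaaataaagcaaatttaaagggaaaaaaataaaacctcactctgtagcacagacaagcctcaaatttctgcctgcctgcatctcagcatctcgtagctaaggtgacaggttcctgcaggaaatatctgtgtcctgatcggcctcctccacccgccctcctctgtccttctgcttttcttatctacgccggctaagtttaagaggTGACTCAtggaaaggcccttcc
This match begins 22 bases before the start, and 6.75% of all windows hold one. Besides PU.1 and AP-1, the letters searched on both strands were GGGANTTCC for NF-κB, TTGCNNAA for C/EBP, GAAANNGAA for interferon response elements and TTCNNNGAA for STAT sites. They occur in 1.43%, 9.56%, 7.13% and 7.02% of the windows. The GAAANNGAA and TTCNNNGAA patterns can share bases with one another and with the PU.1 core. Of the 5 complement genes above background on both arrays with lower values, Cfp held none of the 6 patterns. C5ar1 held 1 interferon-type match, 66 bases before its start and inside the annotated span of the gene.

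None of the 8 genes reached 2-fold in either direction. Over all genes 0.0251% were at least 2-fold lower and 0.0602% at least 2-fold higher. At least 1.5-fold lower were 3 of the 8 genes, C1qb, C1qc and C5ar1, where 0.727% of all genes were, and no complement gene was 1.5-fold higher, where 0.928% of all genes were. At 1.2-fold the counts were 6 lower and 1 higher, against 10.5% and 11.2% of all genes. C1qb lay just past 1.5-fold and Cfp just short of it. Among the 13225 genes above background on at least 1 array, 16 had a difference as low as C1qc or lower, 34 as low as C5ar1, 76 as low as C1qb, 145 as low as Cfp and 436 as low as C3ar1. C1qa stood at the other end, with 341 genes as high or higher. These ranks use the values that chose the genes and describe the 2 arrays only.

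**Figure D2:**
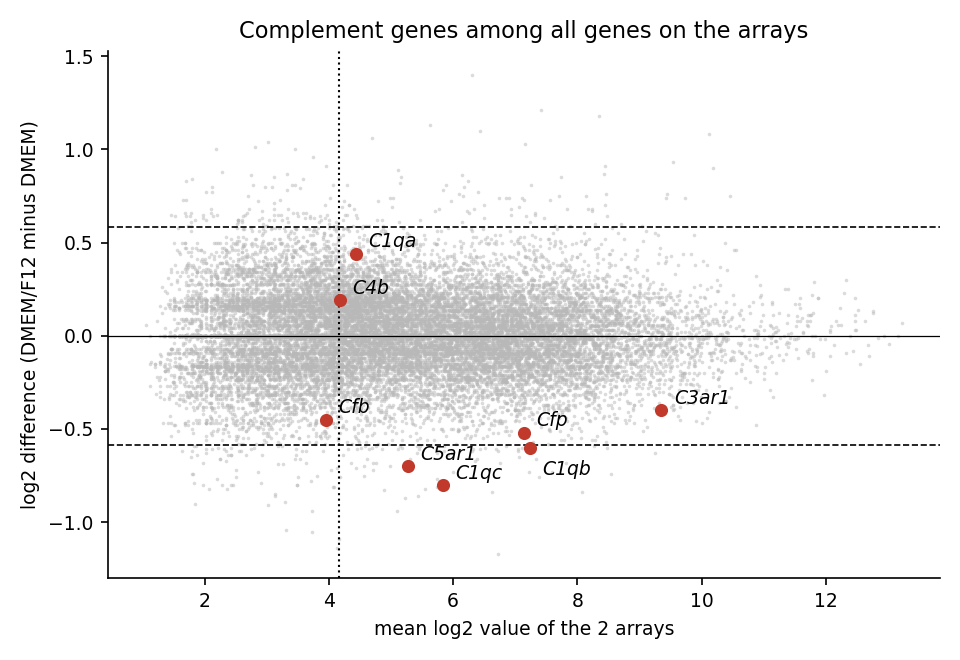
Value in DMEM/F12 minus value in DMEM (log2, y axis) for each of 19938 genes (gray dots) plotted over its average log2 value on both arrays (x axis), with the 8 complement genes in red. Dashed lines mark 1.5-fold and the dotted line marks background; C1qc, C5ar1 and C1qb lie below the lower dashed line, and C1qa and C4b lie above 0 near background.

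The rest of the complement system did not share a direction. Over 6 lists of complement genes by role, 47 measured genes besides the 8 gave 17 higher and 27 lower values and a median difference of -0.04. Over all genes 47.2% were higher and 45.5% lower. Only 20 of these 47 genes were above background on at least 1 array, with 9 higher and 11 lower. The 8 genes were chosen from their values, so nothing is read from a contrast with them. None of the 47 was 1.5-fold lower (0.727% of all genes were), and 1 was 1.5-fold higher (0.928% of all genes were).

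That gene was Cd93, which encodes a C1q receptor-related protein of myeloid and endothelial cells. It had 3.89 in DMEM, below background, and 4.61 in DMEM/F12, so its difference of 0.72 was 0.46 with the DMEM value raised to background. The genes of the integrin receptors for C3 fragments also had values that were higher or nearly equal in DMEM/F12. Itgax, the alpha chain of CR4, had 8.54 in DMEM and 8.98 in DMEM/F12 (0.44), and Itgb2, the beta chain shared by CR3 and CR4, had 7.69 and 8.04 (0.35). Itgam, the alpha chain of CR3, had 7.79 and 7.80 (0.01). Lrp1, an endocytic receptor that binds C1q and its ligands, had 9.20 and 9.45 (0.25), and the C1q-binding protein genes C1qbp and Calr had differences of -0.06 and -0.11. In the list of 12 receptors, 6 had higher and 6 lower values, against 47.2% and 45.5% of all genes. The median was -0.01. C3ar1 and C5ar1 were the 2 lowest of this list. They were chosen from these differences, so nothing is read from that rank.

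Among complement regulators, which limit the cascade on host cells, 4 of 17 measured genes had higher values and 12 lower ones, and the median was -0.12. Over all genes 47.2% were higher and 45.5% lower. With values below background raised to it, the median of the regulators was 0.02. Only 5 of the 17 were above background, and 4 of these 5 were lower. Of the 13225 genes above background on at least 1 array, 6410 were higher and 6265 lower. Cr1l, which encodes Crry, the main membrane inhibitor of C3 convertases in rodents, had 4.99 in DMEM and 4.59 in DMEM/F12 (-0.40). Clu, which encodes clusterin, a secreted chaperone that also blocks the terminal complex, had 8.08 and 8.30 (0.22). The lowest regulator differences, of Cd46 (-0.55) and Serping1 (-0.48), the C1 inhibitor gene, came from values below background on both arrays.

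The lectin pathway gave 3 higher and 4 lower genes of 8 measured, with a median of -0.01. The terminal pathway gave 2 higher and 4 lower of 7, with a median of -0.04. Shares over all genes were 47.2% higher and 45.5% lower. The mannose-binding lectin gene Mbl2 had 4.81 in DMEM and 4.47 in DMEM/F12 (-0.34), and the ficolin gene Fcna had 5.16 and 5.29 (0.13). Hc, which encodes C5, the source of C5a, was below background in both media (3.15 and 2.94). Of the other genes of the terminal pathway, C8g (4.78 and 4.74) was above background and C8a (4.18 and 4.22) barely so. C6, C7, C8b and C9 were below it.

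The wider family of proteins that carry a C1q domain, such as C1qtnf, C1ql and cerebellin proteins, had 13 higher and 8 lower genes of 23 measured and a median of 0.15. Of all genes 47.2% were higher and 45.5% lower. None of the 23 was at 1.5-fold, where 0.928% of all genes were higher and 0.727% lower. C1qtnf4, a secreted cytokine-like member, had 4.25 in DMEM and 4.73 in DMEM/F12 (0.48), and C1ql1, a synaptic organizer, had 7.49 and 7.72 (0.23). Caprin2 had the lowest difference (-0.36), from 4.29 in DMEM to 3.93 in DMEM/F12, which is below background.

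**Figure D3:**
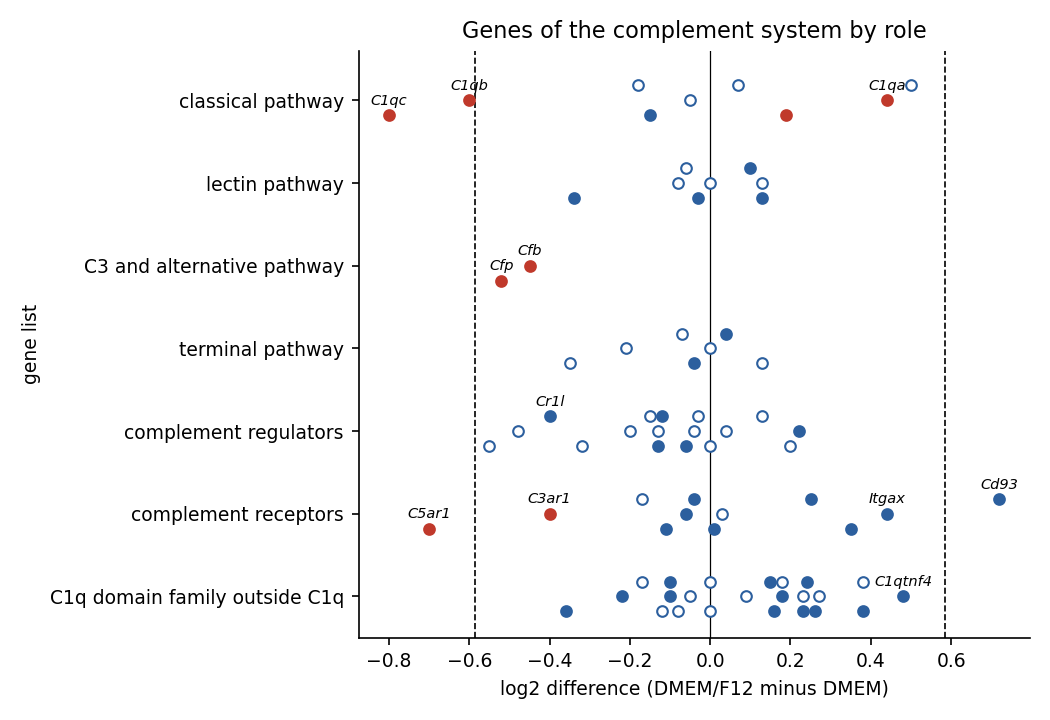
Value in DMEM/F12 minus value in DMEM (log2, x axis) for every measured gene of 6 complement lists and of the C1q domain family (y axis). Red marks the 8 complement genes chosen for description and blue the other genes, filled where a gene is above background on at least 1 array and open otherwise; dashed lines mark 1.5-fold, which C1qb, C1qc and C5ar1 pass on the lower side and Cd93 on the higher side.

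The lower values of C1qb, C1qc, Cfp, C3ar1 and C5ar1 stood beside unequal values of other microglial genes. Of 15 measured markers of microglia and macrophages, 12 were higher and 3 lower. The summed level of the list, as log2, was 13.89 in DMEM and 13.97 in DMEM/F12. Such a sum adds values of different clusters and is led by the highest of them. It is set only against the sum of the same list on the other array. Of 9 markers of resting microglia, 1 was higher and 7 lower, and the list sum was 8.79 and 8.61. Over all genes 47.2% were higher and 45.5% lower. Only 5 of the 9 were above background, 1 higher and 4 lower. Among these were Tmem119 at 6.71 and 6.05 (-0.66) and Olfml3 at 5.66 and 5.26 (-0.40). Cx3cr1 (-0.08), Sall1 (-0.01) and Selplg (0.04) differed little. Of 34 measured markers of neurons, astrocytes, oligodendrocytes, hepatocytes and fibroblasts, 14 lay above background in at least 1 medium, and the list sum went from 10.65 in DMEM to 10.76 in DMEM/F12. Far above background were Aldoc of the astrocyte list, a glycolytic enzyme gene (9.02 and 9.25), and Trf of the hepatocyte list, the transferrin gene (8.95 and 9.09). The collagen gene Col1a1 of the fibroblast list (6.06 and 5.93) and the myelin gene Mbp of the oligodendrocyte list (5.09 and 5.05) were above it as well. The other 10 were Rbfox3 and Gad1 of neurons, Slc1a2 of astrocytes, Mog, Olig2 and Sox10 of oligodendrocytes, Apoa1 of hepatocytes, and Col1a2, Col3a1 and Pdgfra of fibroblasts. Gfap of astrocytes (3.81 and 3.88) and Alb of hepatocytes (2.57 and 3.01) were among the listed markers below background in both media. The part of these lists in the complement values was not tested.

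With 2 arrays the pattern of a gene is a single difference, and many genes share it. The mean difference of the 3 C1q genes was -0.32, a value that mixes the lower C1qb and C1qc with the higher C1qa, and 683 of 12539 other genes above background on both arrays lay within 0.05 of it. The 5 nearest, first by symbol among equal distances, were 1700030J22Rik, 4933407L21Rik, Agmat, Aoc2 and Asf1a, each with a difference of -0.32.

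Other ways of scaling the arrays left each complement gene on its side of 0. Over centring of each array on its median, quantile normalization and subtraction of a loess curve, the difference ranged from -0.82 to -0.79 for C1qc, from -0.62 to -0.58 for C1qb, from -0.72 to -0.71 for C5ar1 and from 0.41 to 0.42 for C1qa. The number of complement genes at least 1.5-fold lower was 3 under each of these scalings, though C1qb lay almost exactly at 1.5-fold with quantile normalization and with the loess curve. Setting dim values to background moved Cfb to -0.01 and left C1qa, C1qb, C1qc, Cfp, C3ar1 and C5ar1 as they were.

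**Figure D4:**
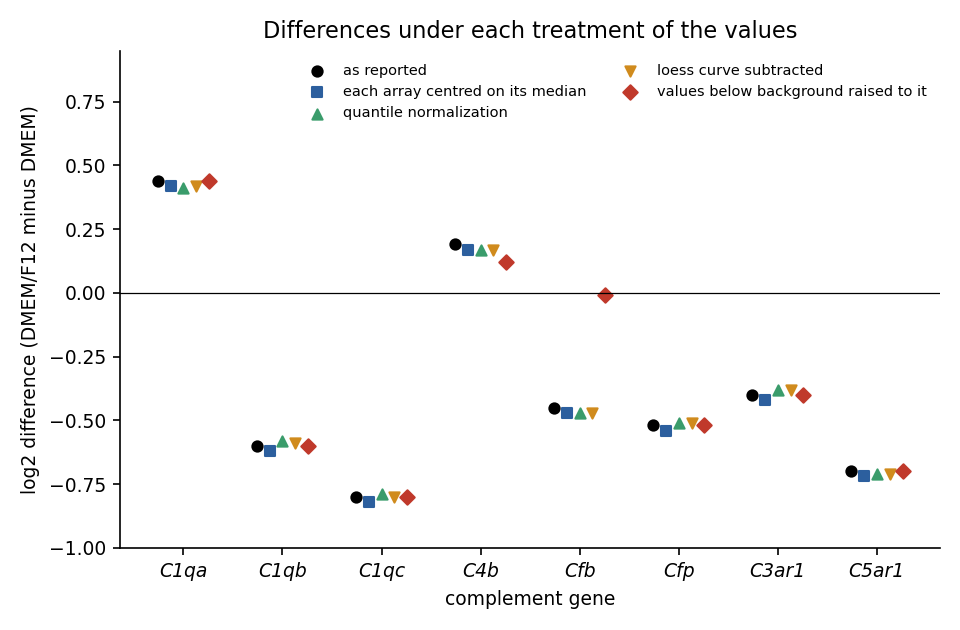
Value in DMEM/F12 minus value in DMEM (log2, y axis) for the 8 complement genes (x axis) as reported, under 3 scalings of the arrays and with dim values set to background, 1 marker for each. Markers of a gene lie close together except for Cfb, which goes from -0.45 as reported to -0.01 with the raised value.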

How the data were processed

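BV2 cells in DMEM or DMEM/F12 were measured on 1 array each. According to the submitters' processing notes the authors used Affymetrix Expression Console together with Transcriptome Analysis Console, and they deposited log2 values of 28944 transcript clusters. The sources used here give no version, summarization, normalization between arrays or genome build. Groups came from the labels. Symbols came from the platform annotation, which gave exactly 1 symbol to 21789 clusters, several to 1621 and none to 5534. Clusters of a gene were averaged. The members, lists and alternatives were chosen with earlier results of these data known. By rule, all 8 measured members are named, any gene of a complement list that was above background on at least 1 array may be, and so are the 2 genes of each complement list with the largest difference in either direction and the 5 genes nearest to the mean C1q difference. Other named genes (further complement genes below background, C1q domain genes, cell markers and neighbours) were chosen after their values were seen. The main values were used without a filter or further scaling. The background limit and the alternative scalings were applied only where the text states them. No test was run, so there is no p-value. Precision is limited by the 2 arrays. Calculations used Python 3.11.15, numpy 2.4.6, pandas 2.3.3 and statsmodels 0.14.6, and plots matplotlib 3.10.9. Scaling, averaging of clusters and calling at 2-fold were tested on simulated data. The other steps were not tested in this way. Promoter windows came from RefSeq, GRCm38.p6. Protein sequences were not used here.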

Additional observations from a re-analysis of the deposited data

How the results depend on the processing

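No paired analysis was possible because there is 1 array for each medium. Shifts over 0.1 (log2) in a value and over 1.5 times in a count were taken as moves. Raising values below background to it moved the median of the alternative pathway from -0.48 to -0.27, that of the regulators from -0.12 to 0.02, which is the gap between the 2 background values and stands for genes below it on both arrays, and the number of genes 2-fold lower from 5 to 1. The numbers of genes 2-fold higher and lower, 12 and 5, were 185 and 145 at 1.5-fold and 2231 and 2087 at 1.2-fold. The brightest cluster per gene and clusters with several symbols could not change the 8 complement genes, since each has 1 cluster and no cluster with several symbols holds one of them. Signal over background limits C1qa, C4b and Cfb most.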
